A study of Arabidopsis thaliana with 5 samples.

Results

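The circadian clock genes of Arabidopsis thaliana were followed in RNA from developing seeds at 9 days after pollination, across 3 libraries of dof4.1-3 seeds and 2 libraries of wild-type Col-0 seeds. The set holds 10 genes among the 37336 gene rows of the count table. They are CCA1 (AT2G46830), LHY (AT1G01060), PRR9 (AT2G46790), PRR7 (AT5G02810), PRR5 (AT5G24470), GI (AT1G22770), TOC1 (AT5G61380), LUX (AT3G46640), ELF4 (AT2G40080) and ELF3 (AT2G25930). The genes are textbook clock components, and the set was chosen from their levels in these same libraries, so all values of the 10 genes are given as a description, without p-values. Where the fit over all genes is counted for them, the count stands beside that of all tested genes and nothing is read from it. All 10 passed the filter on low counts, together with 19003 genes in all. The dof4.1-3 line carries a T-DNA insertion in DOF4.1, a gene for a plant-specific zinc finger transcription factor (named dof4-1 in the sample titles), and its seeds were compared with Col-0 seeds from plants grown at the same time in a long-day greenhouse. It is 1 insertion line, and the sources used here give neither the time of day at which seeds were collected nor whether replicates came from separate plants. Time of day therefore cannot be told apart from the other differences between libraries, and the spread between replicates may be technical.

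The plant clock is a loop of genes that repress one another at successive times of the day. CCA1 and LHY, a pair of related MYB transcription factors, peak around dawn. The pseudo-response regulators PRR9, PRR7 and PRR5 follow through the day and repress CCA1 and LHY, and TOC1, the founding pseudo-response regulator, does so in the evening. GI, a large plant-specific protein, peaks late in the day and works with the F-box proteins ZTL and FKF1, while LUX, ELF3 and ELF4 form the evening complex, a repressor active around dusk and in the early night. Under a light and dark cycle the relative levels of dawn and evening genes are therefore a marker of the phase at which a tissue was sampled, and the same loop runs in most plant organs.

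CCA1 and LHY are known to bind the evening element, AAAATATCT, in the promoters of evening genes. The 250 bases before the annotated start of each gene in the TAIR10.1 assembly were searched on both strands for this element, and 3 of the 10 clock genes held it: PRR5, TOC1 and LUX. Of 37049 upstream windows of that length, 2.13% held it. The windows around the matches are shown because PRR5, TOC1 and LUX were each highest in dof4.1-3 replicate 1, and the windows of FKF1, GRP7 and COR27, chosen after their values were seen, because these genes followed a like pattern. Capitals mark the element in either orientation, each sequence reads 5′ to 3′ on the strand of its gene, and the flanks are 20 bases where the window allowed.
PRR5 (chr5:8358705-8358753, minus strand): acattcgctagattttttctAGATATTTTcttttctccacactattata
TOC1 (chr5:24674792-24674840, plus strand): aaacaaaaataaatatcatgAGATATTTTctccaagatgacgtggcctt
LUX (chr3:17182969-17183017, plus strand): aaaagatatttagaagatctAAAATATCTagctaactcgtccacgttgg
FKF1 (chr1:25508433-25508481, plus strand): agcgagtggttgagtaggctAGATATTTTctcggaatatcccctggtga
GRP7 (chr2:9266560-9266653, minus strand): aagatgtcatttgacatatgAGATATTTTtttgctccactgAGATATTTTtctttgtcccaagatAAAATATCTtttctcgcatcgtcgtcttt
COR27 (chr5:17199911-17199969, minus strand): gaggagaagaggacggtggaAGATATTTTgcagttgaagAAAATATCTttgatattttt

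The G-box, CACGTG, which light-signalling factors such as HY5 and the PIF proteins are known to bind, was in the windows of 5 of the 10 genes, LHY, CCA1, PRR9, PRR7 and LUX, and in 5.45% of all windows. Of these, PRR7 and LUX were highest in dof4.1-3 replicate 1 and PRR9 in replicate 2, so the G-box genes did not share 1 pattern. The windows of CCA1 and LHY alone are shown, with the G-box in capitals. They were picked by their values, because these dawn genes stood opposite to PRR5, TOC1 and LUX.
CCA1 (chr2:19245378-19245423, plus strand): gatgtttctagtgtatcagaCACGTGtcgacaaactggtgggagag
LHY (chr1:37926-37971, minus strand): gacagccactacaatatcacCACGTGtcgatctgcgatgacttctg
The evening element and the G-box share no letters at any of these positions. The related CCA1 binding site, AAAAATCT, was found before 1 of the 10 genes, PRR5, and before 6.12% of all genes. The letters GATACG or GATTCG, which LUX is known to bind, were found before 3 of the 10 and before 12.1% of all genes. A match gives letters only and was not tested as a binding site.

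Total gene counts ran between 20101091 and 21722055 in the dof4.1-3 libraries and between 16500028 and 17049283 in the Col-0 libraries, so ELF4 was the only clock gene with counts near 10 in any library. DOF4.1 (AT4G00940) had 3, 4 and 4 counts in dof4.1-3 seeds, against 1 and 14 counts in Col-0 seeds, too few to check the genotype labels. Embryo and seed storage markers were abundant, with summed levels of 63110, 144900 and 122500 CPM (counts scaled to a common library size with TMM factors) in dof4.1-3 seeds, against 48070 and 27200 CPM in Col-0 seeds. Over all tested genes 206 (23 higher and 183 lower in dof4.1-3) passed edgeR's quasi-likelihood test at an adjusted p of 0.05. In such bulk samples fewer cells of a type and less RNA per cell cannot be told apart.

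The dawn gene LHY had, after ELF4, the widest range between single dof4.1-3 libraries. It stood at 9.84, 43.5 and 55.9 CPM in dof4.1-3 replicates 1, 2 and 3, against 19.5 and 21.9 CPM in Col-0 replicates 1 and 2. The lowest and the highest of all 5 libraries were thus both dof4.1-3 seeds, with the Col-0 libraries between them. CCA1 stood at 22.9, 54.6 and 35.2 CPM in the dof4.1-3 libraries and at 38.8 and 42.4 CPM in the Col-0 libraries, again lowest in dof4.1-3 replicate 1 but highest in replicate 2. The gaps between these libraries were wider than their counting error. The LHY level in dof4.1-3 replicate 1 was 0.176 times that in replicate 3 (95% interval 0.151 to 0.204, counting error only), and for CCA1 the level in replicate 1 was 0.42 times that in replicate 2 (0.376 to 0.467).

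PRR9, the earliest of the pseudo-response regulators to peak, had 3.55, 6.94 and 3.12 CPM in dof4.1-3 seeds, against 4.26 and 5.59 CPM in Col-0 seeds. Like CCA1 it was highest in dof4.1-3 replicate 2, but it was lowest in replicate 3, and its levels in replicates 1 and 3 were not separated by their counting interval (ratio 1.14, 0.804 to 1.62).

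Of the day genes, PRR5 showed the wider spread. It stood at 32.3, 8.35 and 7.53 CPM in dof4.1-3 seeds, against 17.6 and 15.9 CPM in Col-0 seeds, which is the mirror image of LHY: dof4.1-3 replicate 1 lay above both Col-0 libraries, and replicates 2 and 3 below them. The level in dof4.1-3 replicate 1 was 3.87 times that in replicate 2 (3.25 to 4.64) and 4.29 times that in replicate 3 (3.59 to 5.17). PRR7, which peaks earlier in the day, had 34.9, 20.7 and 29.2 CPM in dof4.1-3 seeds, against 18.6 and 28.7 CPM in Col-0 seeds. It too was highest in dof4.1-3 replicate 1, but its lowest library was Col-0 replicate 1, and its fold range within dof4.1-3 was only 1.68.

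All 5 evening genes were highest in dof4.1-3 replicate 1. TOC1 had 27.7, 12.4 and 13.5 CPM in dof4.1-3 seeds, against 14.9 and 15.1 CPM in Col-0 seeds. LUX, the DNA-binding subunit of the evening complex, had 22.3, 10.7 and 10.1 CPM in dof4.1-3 seeds, against 11.8 and 12.1 CPM in Col-0 seeds. In both genes dof4.1-3 replicate 1 stood alone above the other 4 libraries, which lay close together. GI had 55.6, 23.4 and 40.9 CPM in dof4.1-3 seeds, against 36.8 and 39.2 CPM in Col-0 seeds, so that replicate 3 lay near the Col-0 libraries and replicate 2 alone below them.

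ELF4, a small protein of the evening complex, covered the widest range. It stood at 3.23, 0.543 and 0.416 CPM in dof4.1-3 seeds, against 1.54 and 1.86 CPM in Col-0 seeds. These levels rest on 71, 10 and 8 counts in the dof4.1-3 libraries and 25 and 38 counts in the Col-0 libraries, so the ratio of 7.78 between dof4.1-3 replicates 1 and 3 had a counting interval of 3.74 to 18.7. ELF3, the scaffold of the evening complex, varied least within dof4.1-3, with 23.5, 19.5 and 20.5 CPM in dof4.1-3 seeds, against 14.7 and 21.8 CPM in Col-0 seeds.

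**Figure D1:**
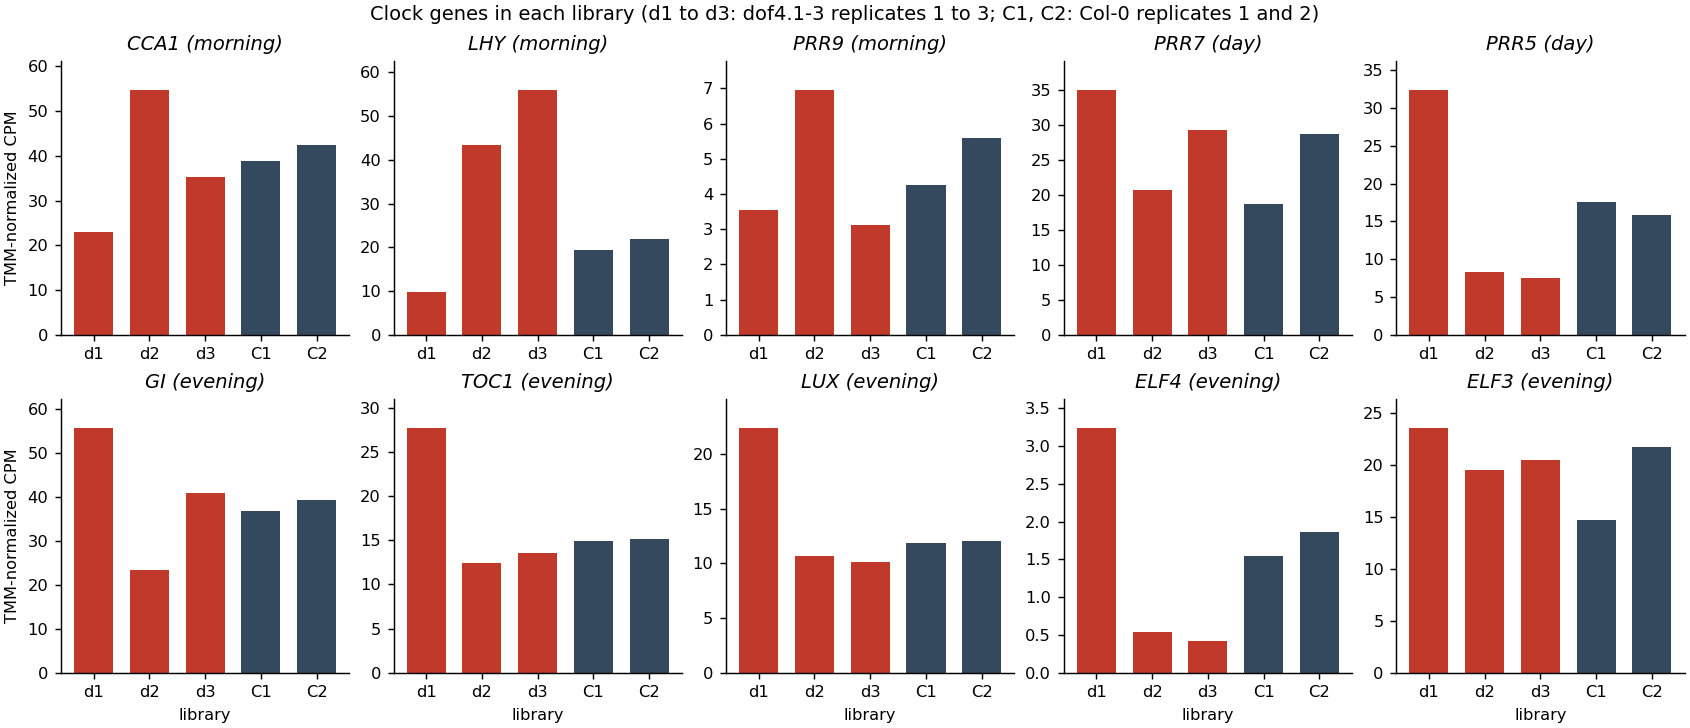
TMM-normalized CPM of the 10 clock genes in each library, 1 panel per gene with its own axis from 0, dof4.1-3 libraries in red and Col-0 libraries in dark blue, 1 bar per library without error bars. PRR7, PRR5, GI, TOC1, LUX, ELF4 and ELF3 were highest in dof4.1-3 replicate 1, where CCA1 and LHY were lowest.

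Of the clock genes, 7 of 10 were thus highest in dof4.1-3 replicate 1, against 22.3% of all tested genes, and 2 of 10 were lowest there, against 18.3% of all tested genes. Neither Col-0 library held the highest level of any of the 10. On the TPM scale, which divides by transcript length, CCA1 was the most abundant of the 10 and averaged 17 TPM in dof4.1-3 seeds and 22.3 TPM in Col-0 seeds, and ELF4 averaged 3.16 TPM in dof4.1-3 seeds and 4 TPM in Col-0 seeds. PRR9 averaged 2.66 TPM in dof4.1-3 seeds and 3.52 TPM in Col-0 seeds, so PRR9 and ELF4 were the least abundant. The TPM values carry no TMM factor, so they are read for the order of genes and not between genotypes. With TMM factors CCA1 averaged 37.6 CPM in dof4.1-3 seeds and 40.6 CPM in Col-0 seeds. Over the 5 libraries CCA1 covered 12.9 to 26.3 TPM and LHY 4.98 to 23.3 TPM, and PRR9 covered 1.87 to 4.46 TPM and ELF4 0.822 to 7.75 TPM, so neighbours at either end of this order overlapped.

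Ratios of 2 genes within a library do not depend on how the library was scaled, and since counts are not divided by transcript length they are compared between libraries only. The ratio of CCA1 to TOC1 counts was 0.829, 4.4 and 2.61 in dof4.1-3 replicates 1, 2 and 3, against 2.6 and 2.81 in the Col-0 libraries. It was below 1 in dof4.1-3 replicate 1 alone (0.735 to 0.934), highest in replicate 2 (3.81 to 5.1), and in replicate 3 (2.26 to 3.02) overlapped the intervals of both Col-0 libraries. The ratio of LHY to GI was 0.177, 1.86 and 1.37 in dof4.1-3 seeds, against 0.53 and 0.558 in Col-0 seeds. Here dof4.1-3 replicates 2 and 3 both lay above the Col-0 libraries and replicate 1 below them.

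The CCA1 to PRR5 ratio, 0.709, 6.54 and 4.68 in dof4.1-3 seeds and 2.21 and 2.66 in Col-0 seeds, kept the same order of dof4.1-3 replicate 2 over 3 over 1. LHY to TOC1, 0.356, 3.5 and 4.14 in dof4.1-3 seeds and 1.31 and 1.45 in Col-0 seeds, put replicate 3 above replicate 2 instead. The 2 dawn genes did not keep a fixed proportion to each other either. LHY to CCA1 was 0.429, 0.796 and 1.59 in dof4.1-3 seeds, against 0.502 and 0.517 in Col-0 seeds, so that dof4.1-3 replicate 3 was the one library with more LHY than CCA1 counts.

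**Figure D2:**
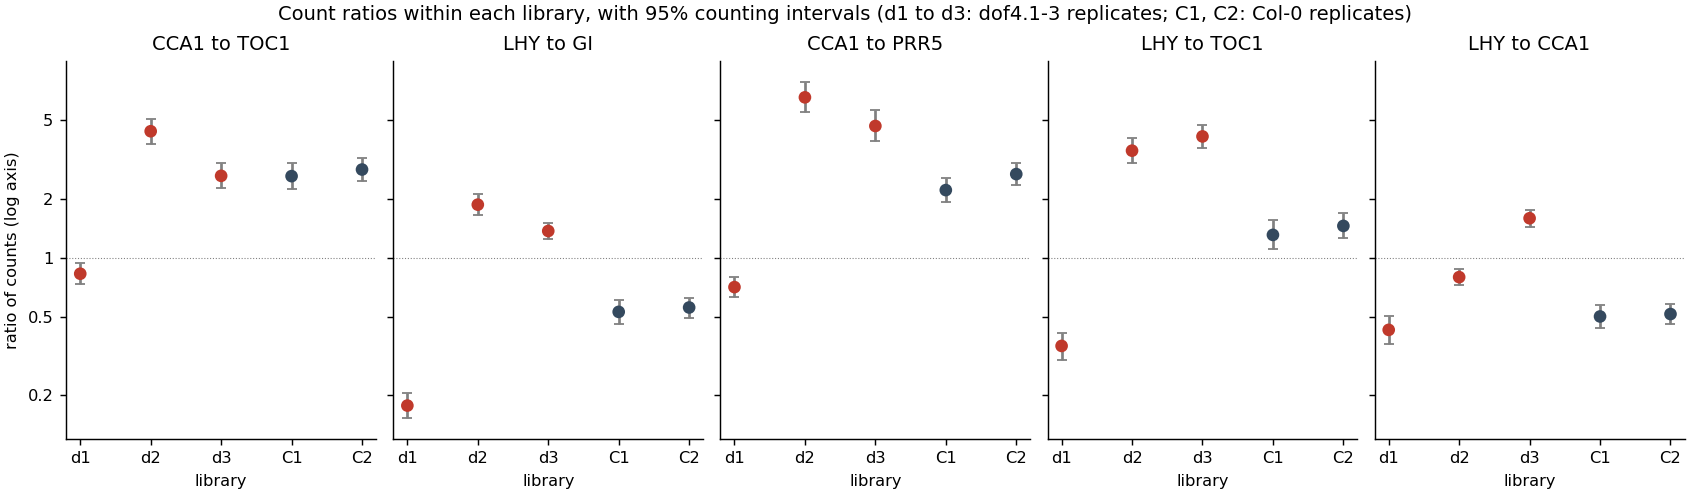
Ratios of the counts of 2 clock genes within each library on a log axis, 1 panel per gene pair, dof4.1-3 libraries (d1 to d3) in red and Col-0 libraries (C1, C2) in dark blue, with exact 95% intervals that cover counting error only. CCA1 to TOC1 was 0.829 in dof4.1-3 replicate 1 and 4.4 in replicate 2, against 2.6 and 2.81 in the Col-0 libraries.

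A morning to evening index was taken as the mean log2 CPM of CCA1 and LHY minus the mean log2 CPM of GI, TOC1, LUX and ELF4. It was -0.29, 2.86 and 2.59 in dof4.1-3 replicates 1, 2 and 3, against 1.43 and 1.48 in Col-0 replicates 1 and 2. The Col-0 libraries were nearly equal, dof4.1-3 replicate 1 lay below both and dof4.1-3 replicates 2 and 3 above both, so the genotypes overlapped and the spread within dof4.1-3 exceeded the distance of any dof4.1-3 library from Col-0. With CPM summed before the log was taken the index was -1.73, 1.06 and 0.49 in dof4.1-3 seeds, against -0.159 and -0.086 in Col-0 seeds, in the same order of libraries within dof4.1-3.

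The distance between libraries was also taken over the 10 genes together. Between dof4.1-3 replicates 1 and 2 the clock genes differed by a median of 1.2 log2 units in either direction, against 0.34 for all tested genes, and 7 of 10 differed by more than 2-fold, against 10.6% of all tested genes. Between dof4.1-3 replicates 1 and 3 the median was 0.82, against 0.26 for all tested genes, with 5 of 10 and 6.07% past 2-fold. Between dof4.1-3 replicates 2 and 3 it was 0.34, against 0.33 for all tested genes, and PRR9 was the 1 of 10 past 2-fold. The counting interval of the ratio between these libraries covered 1 for PRR5, TOC1, LUX, ELF4 and ELF3.

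Set against Col-0 replicate 1, the clock genes of dof4.1-3 replicates 1, 2 and 3 differed by medians of 0.88, 0.57 and 0.45 log2 units, where all tested genes differed by 0.45, 0.35 and 0.42. Against Col-0 replicate 2 the medians were 0.82, 0.42 and 0.26, where all tested genes differed by 0.29, 0.3 and 0.33. The Col-0 libraries themselves were closer in the clock genes, with a median of 0.15, than over all tested genes, with a median of 0.27, and none of the 10 genes differed by 2-fold between them.

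**Figure D3:**
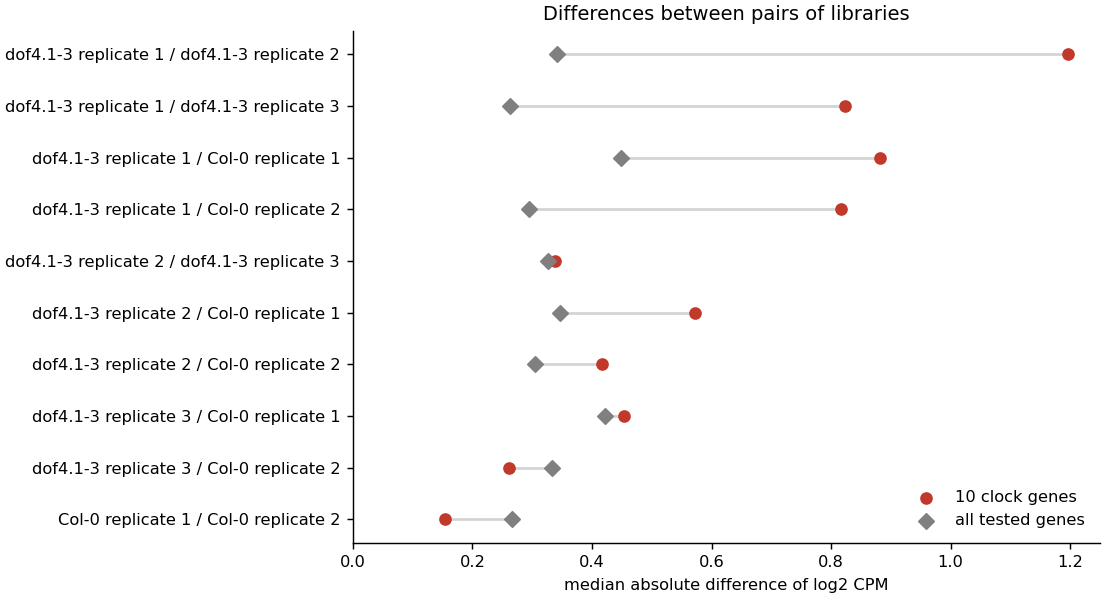
Median absolute difference of log2 CPM between each pair of libraries, for the 10 clock genes (red circles) and for all 19003 tested genes (grey diamonds), with a line joining the 2 values of a pair. The largest clock gene median, 1.2, was between dof4.1-3 replicates 1 and 2, and the smallest, 0.15, between the Col-0 replicates.

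The range of log2 CPM within the dof4.1-3 libraries had a median of 1.2 over the clock genes, against 0.51 over all tested genes, and 5 of 10 lay above the level that 10% of all tested genes exceed: ELF4, LHY, PRR5, CCA1 and GI. ELF3 was the exception at the other end, with a range of 0.27 below the median of all genes. The difference between the Col-0 libraries had a median of 0.15 over the clock genes, and none of the 10 exceeded the level that 10% of all tested genes exceed in that pair. Over all 5 libraries the SD of log2 CPM was 1.13 for ELF4, 0.99 for LHY and 0.85 for PRR5, above 97.7%, 96.5% and 94.7% of tested genes, and ran between 0.26 and 0.46 for the other 7 genes. A group of 3 libraries has a wider range than a pair by its size alone, so the dof4.1-3 and Col-0 values are each read against all tested genes only.

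By genotype, the dof4.1-3 and Col-0 libraries overlapped in all 10 clock genes, where 34.6% of all tested genes did not overlap. The 10 genes were chosen from these libraries, so this and the counts that follow are a description and no test. None of the 10 passed edgeR's test over all genes (1.08% of tested genes passed), none had an unadjusted p under 0.05, where 15.8% of all tested genes did, and none passed with DESeq2. LHY averaged 36.4 ± 23.8 CPM in dof4.1-3 seeds and 20.7 ± 1.71 CPM in Col-0 seeds (SD, n = 3 and n = 2), a log2 fold change of 0.81 with an SE of 0.66. This was the largest of the 10 in that fit. It was 0.02 with the replicate block and -0.19 with the block fitted and the length trend removed. Dof4.1-3 replicate 3, where LHY was highest, is alone in its block and adds nothing to the genotype difference in those fits. PRR5 averaged 16.1 ± 14.1 CPM in dof4.1-3 seeds and 16.8 ± 1.17 CPM in Col-0 seeds, with a log2 fold change of -0.05 and an SE of 0.65. TOC1 averaged 17.9 ± 8.5 CPM in dof4.1-3 seeds and 15 ± 0.118 CPM in Col-0 seeds, with a log2 fold change of 0.25 and an SE of 0.34. ELF4 averaged 1.4 ± 1.59 CPM in dof4.1-3 seeds and 1.7 ± 0.226 CPM in Col-0 seeds. Over the 10 genes 6 fold changes were positive and 4 negative, with a median of 0.14, beside 0.03 over all tested genes.

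Dof4.1-3 replicate 1 decided several of these values. Without it, the fit over all genes put 2 of the 10 past the threshold, LHY on the higher and PRR5 on the lower side in dof4.1-3, where 2.67% of all tested genes passed (500 of 18721). The log2 fold change was then 1.26 for LHY (SE 0.24), -1.07 for PRR5 (SE 0.25) and -1.82 for ELF4 (SE 0.51). TOC1, LUX and GI, positive with all 5 libraries, stood at -0.21, -0.2 and -0.24 without it. With all 5 libraries and the length trend removed, GI was also negative (-0.26) and LUX stood at -0.01. With the replicate block, where dof4.1-3 replicate 3 adds nothing to the genotype difference, GI stood at -0.07. Leaving out any other library gave 0 of 10. Replicate 1 was singled out by its measured values, as the 10 genes were, so this count is no test of a genotype difference and describes only how far 1 library carries the comparison.

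**Figure D4:**
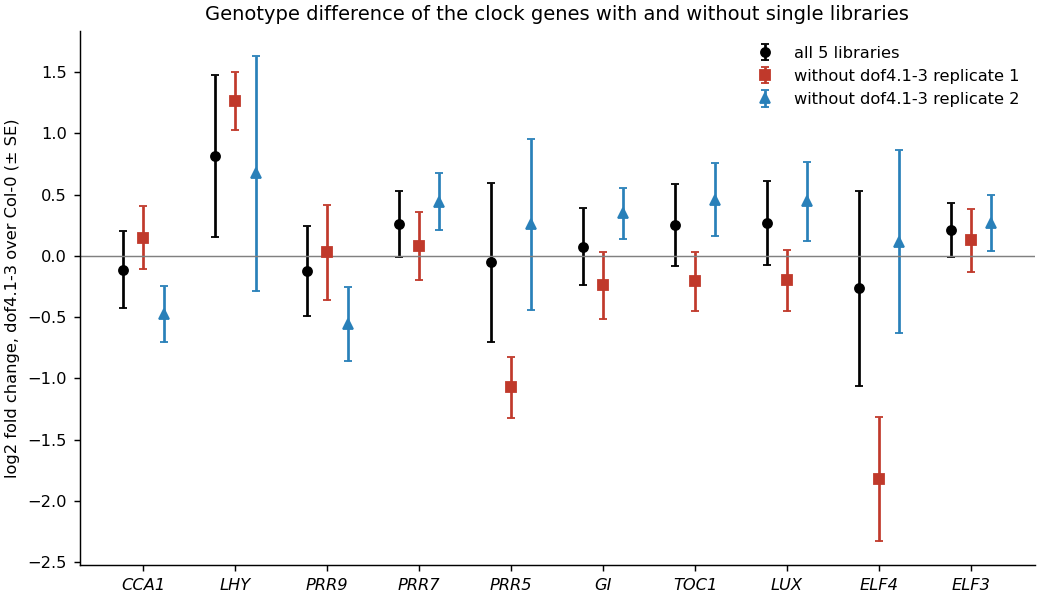
Log2 fold change of the 10 clock genes, dof4.1-3 over Col-0, with bars of 1 SE on either side, from edgeR fits with all 5 libraries (black circles), without dof4.1-3 replicate 1 (red squares) and without dof4.1-3 replicate 2 (blue triangles). PRR5 stood at -0.05 with all libraries and at -1.07 without dof4.1-3 replicate 1, and ELF4 at -0.26 and -1.82.

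The wider clock network was described with 63 further genes in 6 lists, 62 of which passed the filter (ELF4-L1 did not). None of the 62 passed edgeR's test, the smallest adjusted p being 0.214; 8 had an unadjusted p under 0.05, 4 higher and 4 lower, which is 12.9% where 15.8% of all tested genes did. None passed with DESeq2, where 844 of the 19003 tested genes did. Their fold changes were 32 positive and 30 negative, with a median log2 value of 0.04. Both sets together held 72 tested genes. Of these, 10 were more than 1.5-fold higher in dof4.1-3 replicate 1 than in every other library, where 1.05% of all tested genes were. Another 6 were more than 1.5-fold lower there than in every other library, where 2.3% of all tested genes were. PRR5, TOC1, LUX and ELF4 among the higher and CCA1 and LHY among the lower belong to the set chosen from these libraries. Replicate 1 was singled out by its values too, so these shares are a description and no test.

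Among the 19 regulators of clock protein turnover and other clock-associated genes, 10 were highest in dof4.1-3 replicate 1. FKF1, the blue-light F-box protein that works with GI, had 10.9, 1.19 and 1.4 CPM in dof4.1-3 seeds, against 2.96 and 2.94 CPM in Col-0 seeds. JMJD5, a jumonji-domain protein with evening expression, had 7.29, 2.66 and 2.55 CPM in dof4.1-3 seeds, against 2.47 and 2.6 CPM in Col-0 seeds. AT4G33980 had 5.01, 0.705 and 0.831 CPM in dof4.1-3 seeds, against 1.73 and 1.52 CPM in Col-0 seeds. In all of them dof4.1-3 replicate 1 was the highest library, and for FKF1 and AT4G33980 the dof4.1-3 replicates 2 and 3 lay below both Col-0 libraries, as they did for PRR5 and ELF4.

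COR27, a small regulator that acts in clock and cold responses, had 17.2, 6.08 and 6.65 CPM in dof4.1-3 seeds, against 7.89 and 9.01 CPM in Col-0 seeds. PRR3, a further pseudo-response regulator, had 4.24, 1.79 and 1.3 CPM in dof4.1-3 seeds, against 0.925 and 1.76 CPM in Col-0 seeds. Of its list, the relatives of the PRR, LUX and ELF4 genes, PRR3 alone was highest in dof4.1-3 replicate 1. ELF4-L3 had 7.38, 9.66 and 5.92 CPM in dof4.1-3 seeds, against 15.1 and 10.6 CPM in Col-0 seeds, the groups not overlapping, and did not pass the adjusted test.

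The 12 RVE and LNK genes, MYB relatives of CCA1 and LHY and the coactivators that bind them, lay the other way. None was highest in dof4.1-3 replicate 1, 7 of 12 were lowest there and 6 of 12 were highest in dof4.1-3 replicate 2. RVE8, an afternoon activator of evening element genes, had 4.87, 14.2 and 17.5 CPM in dof4.1-3 seeds, against 6.85 and 6.27 CPM in Col-0 seeds, the same order of libraries within dof4.1-3 as LHY. RVE1, which links the clock to auxin, had 3.23, 11.2 and 5.77 CPM in dof4.1-3 seeds, against 10.1 and 7.2 CPM in Col-0 seeds. LNK3 had 13.5, 40.6 and 28.5 CPM in dof4.1-3 seeds, against 37.4 and 31.3 CPM in Col-0 seeds. RVE1 and LNK3 shared with CCA1 a highest level in dof4.1-3 replicate 2 and a lowest level in replicate 1. Without dof4.1-3 replicate 1, RVE8 passed the test as higher in dof4.1-3 (log2 fold change 1.27, edgeR adjusted p = 0.0225), the 1 gene of the 62 that did. In that fit 500 of 18721 tested genes passed (2.67%). Replicate 1 was singled out by its values, so this call is no test of a genotype difference.

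Of 9 dawn and morning output genes, 5 were lowest in dof4.1-3 replicate 1 and 6 were highest in replicate 2. CDF1, a DOF-family repressor of flowering, had 3.87, 10.6 and 3.58 CPM in dof4.1-3 seeds, against 5.92 and 10.1 CPM in Col-0 seeds. PIF5, a growth-promoting bHLH factor of the late night, had 6.24, 12.4 and 4.47 CPM in dof4.1-3 seeds, against 11.3 and 10.6 CPM in Col-0 seeds. Both were far higher in dof4.1-3 replicate 2 than in replicates 1 and 3, the order that PRR9 had within dof4.1-3. Without dof4.1-3 replicate 2, PIF5 passed the test as lower in dof4.1-3 (log2 fold change -1.02, edgeR adjusted p = 0.041), 1 of the 62 wider genes. In that fit 888 of 18704 tested genes passed. Each library was left out in turn and this fit is named for its call, so the call is no test of a genotype difference. PIF4 had 2.69, 1.68 and 3.06 CPM in dof4.1-3 seeds, against 4.19 and 4.51 CPM in Col-0 seeds, and did not pass the adjusted test.

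The 6 evening output genes did not move as a list: 1 was highest and 3 were lowest in dof4.1-3 replicate 1. GRP7, a glycine-rich RNA-binding protein that peaks in the evening, had 372, 72.8 and 82.3 CPM in dof4.1-3 seeds, against 139 and 135 CPM in Col-0 seeds, the pattern of PRR5. CAT3, the evening-phased catalase, had 284, 497 and 307 CPM in dof4.1-3 seeds, against 424 and 586 CPM in Col-0 seeds, and was lowest where GRP7 was highest. CO, the photoperiodic flowering regulator, had 0.273, 0.38 and 0.416 CPM in dof4.1-3 seeds, against 1.11 and 0.686 CPM in Col-0 seeds, and did not pass the adjusted test.

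Of the 11 photoreceptor and light-signalling genes, 4 were highest in dof4.1-3 replicate 1 and 8 were lowest in Col-0 replicate 1. HYH, the bZIP partner of HY5, had 3.55, 14.9 and 11.4 CPM in dof4.1-3 seeds, against 7.71 and 6.27 CPM in Col-0 seeds, with the order of the LHY to GI ratio within dof4.1-3. PHYB and PHYD, red-light receptors, had smaller spreads, PHYB with 51.6, 37.9 and 39.3 CPM in dof4.1-3 seeds, against 24 and 36.4 CPM in Col-0 seeds. PHYD had 7.02, 4.56 and 5.35 CPM in dof4.1-3 seeds, against 3.08 and 3.48 CPM in Col-0 seeds, the groups not overlapping, without passing the adjusted test.

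**Figure D5:**
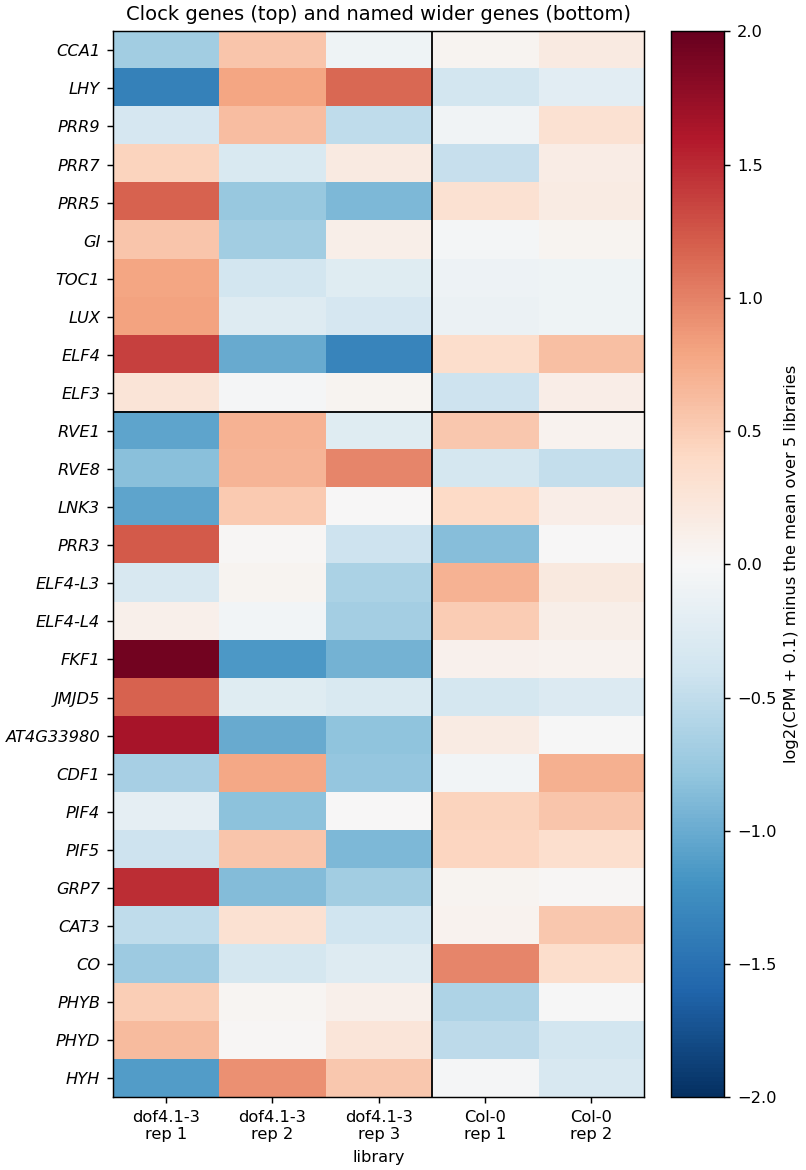
Log2(CPM + 0.1) of the 10 clock genes (above the line) and of the named genes of the wider lists (below it) in each library, minus the mean of the gene over the 5 libraries, red for higher and blue for lower. FKF1, AT4G33980 and GRP7 had their highest level in dof4.1-3 replicate 1 with PRR5 and TOC1, and RVE1, RVE8, LNK3 and HYH their lowest with CCA1 and LHY.

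The clock genes with the evening element were not all highest in the same library. Together with the wider lists, 10 clock genes held it before their start, and 6 of these were highest in dof4.1-3 replicate 1: PRR5, TOC1, LUX, FKF1, GRP7 and COR27. RVE7, CAT3, GRP8 and BOA held it and were highest in other libraries. The 466 tested genes with the element include these 10, and the set was examined after the clock genes were seen. Their median centred log2 levels were 0.04, -0.03 and -0.1 in dof4.1-3 seeds, against 0.06 and 0.06 in Col-0 seeds. Of the 466, 24.9% were highest in dof4.1-3 replicate 1, where 22.3% of all tested genes were. In that library 12.9% of the 466 were lowest, where 18.3% of all tested genes were. In dof4.1-3 replicate 3 31.8% were lowest, where 20.9% of all tested genes were. Without the 10, 456 genes remained, and their median in dof4.1-3 replicate 1 was 0.03. Of the 456, 24.1% were highest and 12.9% lowest in dof4.1-3 replicate 1, and 31.6% were lowest in replicate 3.

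The genes with the profile most like CCA1, by Euclidean distance of centred log2 CPM over the 5 libraries, were AT1G35180, AT4G24275, AT5G57170, HAT1 and AT4G15545, at distances of 0.12 to 0.17 where the median tested gene lay at 1.13. AT4G15545 was the most abundant of these, with 30.6, 67.4 and 47.8 CPM in dof4.1-3 seeds, against 54.4 and 52.1 CPM in Col-0 seeds. AT1G35180, AT4G24275 and HAT1 were low, with at most 2.33, 2.66 and 2.06 CPM in any library. For TOC1 the nearest were AT3G14470, AT5G66650, AT4G07455, ROPGEF10 and LBD38, at distances of 0.2 to 0.22 where the median was 1.08. AT5G66650 had 19.6, 8.84 and 10.8 CPM in dof4.1-3 seeds, against 12.2 and 10.6 CPM in Col-0 seeds. AT3G14470, AT4G07455 and LBD38 were low, with at most 1.41, 1 and 1.87 CPM in any library. None of these 10 genes was in a clock list. They were picked as the closest of all tested genes over 5 libraries, so their closeness is a description only.

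Markers of the tissues in the samples were summed beside these values. The sum of the seed storage markers given above stood in the order of the index within dof4.1-3, highest in replicate 2 and lowest in replicate 1. It was lower in both Col-0 libraries than in any dof4.1-3 library. CRA, CRC and SESA1 had that order within dof4.1-3. ABI3 was highest in replicate 1 (150, 115 and 146 CPM) and OLEO1 in replicate 3 (13490, 16780 and 21620 CPM). Endosperm markers summed to 90.1, 49 and 54.1 CPM in dof4.1-3 seeds, against 136 and 144 CPM in Col-0 seeds, the reverse of the order of the index within dof4.1-3. Seed coat markers summed to 847, 772 and 891 CPM in dof4.1-3 seeds, against 1497 and 1262 CPM in Col-0 seeds. Silique wall markers, which would come from fruit tissue, summed to 17.1, 26.5 and 16.1 CPM in dof4.1-3 seeds, against 32.4 and 35 CPM in Col-0 seeds, and 4 of 5 were lowest in dof4.1-3 replicate 1. Leaf and stem markers summed to 11190, 14560 and 14520 CPM in dof4.1-3 seeds, against 13640 and 10590 CPM in Col-0 seeds. This sum had the order of the index within dof4.1-3, but of its single markers LHCB5 alone did. RBCS1A, which made most of the sum (9481, 12080 and 12660 CPM in dof4.1-3 seeds), CA1 and FIL were highest there in replicate 3. No marker was at 0 in any library. Over all 5 libraries none of these sums had the order of the index, and their part in the levels of the clock genes was not tested. The counting was without strand: LUX and ELF3 overlap genes on the other strand, 2 of which had 0 counts in every library, and ELF3 shares 24 bases with ALPHA-VPE, which was counted in all libraries.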

How the data were processed

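RNA-seq was read from 3 dof4.1-3 and 2 Col-0 libraries of developing seeds. The authors trimmed paired-end reads with cutadapt, mapped them to TAIR10 with HISAT2 and deposited whole-number counts per gene from htseq-count, made without strand. No column of another sample was used. Genes were filtered with filterByExpr, scaled by TMM and tested with edgeR 4.0.16 (R 4.3.3, glmQLFit with robust = TRUE, Benjamini-Hochberg adjustment over 19003 genes, threshold 0.05), and DESeq2 1.42.0 was an alternative. Log2 CPM used a prior count of 2. Count ratios have exact binomial 95% intervals, which cover counting error only. Upstream windows came from the TAIR10.1 sequence and annotation (RefSeq). P-values set the genotype difference against the spread between these libraries within a genotype, and do not measure that spread. The genes and lists were chosen with earlier results of these data known. Named wider genes were those called and up to 3 of each list with the largest SD of log2 CPM, and for CCA1 and TOC1 the 5 nearest profiles; COR27 and the other evening element genes outside this rule were chosen after their values were seen. Deviations from the group mean of libraries with the same replicate number correlated at -0.25 for number 1 and -0.29 for number 2. With 2 Col-0 libraries both values rest on the same Col-0 difference, so they cannot decide whether replicate numbers paired the libraries. Alternatives were other scalings, filters, a length correction, a replicate block and leaving out each library. In the block fits dof4.1-3 replicate 3, alone with its number, adds nothing to the genotype difference.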

Additional observations from a re-analysis of the deposited data

How the results depend on the processing

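No clock gene was called with all 5 libraries, so no call of theirs could reverse. LHY and PRR5, past the threshold without dof4.1-3 replicate 1 at 1.26 and -1.07, stood at -0.19 with the replicate block and length trend removed (LHY) and at 0.29 without dof4.1-3 replicate 3 (PRR5). Over all tested genes 206 were called, and the count was 735 with no filter on low counts, 54 with the length trend removed, 4 with the replicate block and length trend removed together, 845 with DESeq2, and 0 to 888 with 1 library left out. With the replicate block alone it was 204. Of the 10 clock genes 0 were called under every alternative fitted to all 5 libraries, and 0 to 2 with 1 library left out. ELF4 was not tested where at least 10 counts in every library were required. Of the 62 wider genes 0 to 1 were called with 1 library left out. The morning to evening index with PRR9 and ELF3 added was -1.04, 1.62 and 1.035 in dof4.1-3 replicates 1, 2 and 3. It was 0.44 in Col-0 replicate 1 and 0.48 in Col-0 replicate 2. From summed CPM it was 1.06 and 0.49 in dof4.1-3 replicates 2 and 3, and -0.159 and -0.086 in Col-0 replicates 1 and 2. With the length trend removed, an alternative chosen after seeing the data, it was 1.56 in Col-0 replicate 1. With PRR9 and ELF3 added or CPM summed, the index is defined otherwise, so its level is not that of the main index. In each version dof4.1-3 replicate 1 lay below both Col-0 libraries and dof4.1-3 replicates 2 and 3 above both. The cause of the shift with the length trend removed was not tested. The median SD of the clock genes was 0.35 to 0.53 and its percentile 59.2 to 82.4 with 1 library left out. The replicate block changed the log2 fold change of LHY to 0.02, in a fit where dof4.1-3 replicate 3, its highest library, adds nothing to the genotype difference. Depth limits ELF4, with 8 counts in its lowest library. With 2 Col-0 libraries the spread of Col-0 rests on a single difference.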
